A study of Mus musculus with 11 samples.

Results

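The immediate early genes described here are 10 of the 36529 genes counted in BV2, a microglial line transformed from mouse, and were chosen by name as Egr1, Egr2, Egr3, Ier2, Ier3, Ier5, Nr4a1, Nr4a2, Nr4a3 and Btg2. Ier3 was singled out because its level in untreated cells and the direction of its change differed between the 2 experiments. Its values are therefore given as a description, with no test. In the first experiment, 3 samples received nApoE4 at 25 μg/ml over 5 h, a fragment holding residues 1 to 151 of human ApoE4, and 3 samples were left untreated. In the second, 2 samples received nApoE3, the same stretch of ApoE3, at that dose and for that time, beside their own 3 untreated samples. The fragments differ at 1 residue and both carried a histidine tag for purification. The labels name a PBS vehicle, the methods state that untreated wells received conditioned media, and which of these the untreated samples received is not known. All 11 samples are of the same C57BL/6-derived line. The paper describes its transcriptome measurements as independent, while the labels do not say whether the samples of a group were separate cultures. The p-values set each difference against the spread between these samples, part or all of which may be technical. Each fragment was run in its own experiment, so fragment and experiment cannot be told apart.

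Immediate early genes are switched on within minutes of a stimulus, without new protein synthesis, through kinases that act on factors already bound at their promoters. Their transcripts are short-lived, and many return to a low level within hours. Egr1, Egr2 and Egr3 encode zinc-finger transcription factors, Nr4a1, Nr4a2 and Nr4a3 encode orphan nuclear receptors, and Ier2 and Ier5 encode small related nuclear proteins. Ier3, also named IEX-1, encodes a small stress-inducible protein that influences cell survival and is a known target of NF-κB. Btg2 encodes an antiproliferative protein that binds the CCR4-NOT deadenylase. In macrophages and microglia, several of them respond to bacterial products and cytokines.

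The authors deposited raw HTSeq counts per gene. The 6 samples of the nApoE4 experiment held 39732710 to 44162511 counts on genes and the 5 samples of the nApoE3 experiment 55809688 to 69768666. Levels are given as CPM, the counts scaled to a common library size over the 11 samples. Untreated replicate 2 of the nApoE4 experiment stood apart, with a chi-square per gene of 25.8 and 47.9 against the other samples of its group, where that pair had 7.85. Without it, the log2 differences with nApoE4 were −0.65 for Ier3, −3.71 for Egr3, −1.60 for Nr4a1, 2.64 for Nr4a3 and 1.65 for Btg2. A level of 3 counts, taken as the smallest that a sample could show, was 0.0430 to 0.0755 CPM and covers counting error only. Of 11 microglia and macrophage markers, 8 reached 1 CPM in every sample, while P2ry12 had no counts and Aif1 and Cx3cr1 stayed below 1 CPM on average in each group. Their summed level was 3329 to 3639 CPM in the untreated samples of the nApoE4 experiment and 2519 to 2624 CPM in those of the nApoE3 experiment. With treatment it was 3613 to 3708 CPM for nApoE4 and 3126 to 3145 CPM for nApoE3. The summed level of 4 astrocyte markers was at most 7.02 CPM, nearly all of it Slc1a2, and that of 4 neuron markers at most 6.27 CPM. The summed level of 4 oligodendrocyte markers was higher, at 11.3 to 14.2 CPM in untreated samples of the nApoE4 experiment and 24.03 to 24.55 CPM in those of the nApoE3 experiment. With treatment it was 9.28 to 11.8 CPM for nApoE4 and 22.1 to 25.4 CPM for nApoE3. Most of it was Mbp, and Mog had no counts. The part of these shifts in the results was not tested. Since RNA was taken from whole cultures, fewer cells with a transcript and less transcript per cell cannot be told apart.

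Ier3, Nr4a1 and Btg2 show 3 patterns, opposite directions with the fragments, lower with both and higher with both, and the sequence upstream of their starts is given for that reason. The sequences are from RefSeq on GRCm38.p6 and run 5′ to 3′ on the strand of the gene, with the matches to the searched motifs in capitals. They lie at chr17:35821463-35821683 on the plus strand for Ier3, at chr15:101266596-101266845 on the plus strand for Nr4a1 and at chr1:134079156-134079405 on the minus strand for Btg2. The Nr4a1 sequence precedes a start inside the gene, whose RefSeq span is chr15:101253902-101274795.
Ier3: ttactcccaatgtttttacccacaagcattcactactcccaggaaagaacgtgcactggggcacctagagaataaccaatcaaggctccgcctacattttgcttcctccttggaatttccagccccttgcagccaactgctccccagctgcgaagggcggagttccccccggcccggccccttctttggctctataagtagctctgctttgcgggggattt
Nr4a1: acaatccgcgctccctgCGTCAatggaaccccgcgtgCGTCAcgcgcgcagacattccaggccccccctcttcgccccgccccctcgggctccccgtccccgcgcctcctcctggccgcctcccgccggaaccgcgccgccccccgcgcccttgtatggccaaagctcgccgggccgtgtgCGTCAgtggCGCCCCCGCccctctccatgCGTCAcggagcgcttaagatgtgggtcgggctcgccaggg
Btg2: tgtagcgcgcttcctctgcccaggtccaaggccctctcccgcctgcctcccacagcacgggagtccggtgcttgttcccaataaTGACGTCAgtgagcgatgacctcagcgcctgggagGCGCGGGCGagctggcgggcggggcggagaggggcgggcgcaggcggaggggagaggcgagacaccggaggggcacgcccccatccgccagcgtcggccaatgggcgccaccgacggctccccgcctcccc
Promoter sequence was at hand for 7 of the 10 members, and both strands of the 250 bases before each start were searched. TGACG, the core of the cyclic AMP response element (CRE), was found before a start of 5 of the 7 members, Egr2, Nr4a1, Nr4a2, Nr4a3 and Btg2, and in 17.8% of 32851 RefSeq promoter windows. The full CRE TGACGTCA, which holds that core on both strands, was found before Btg2, from 166 to 159 bases upstream, and in 1.55% of all windows. GCGNGGGCG, an EGR motif, was found before Nr4a1, Nr4a2 and Btg2 and in 4.7% of all windows. The CArG box, the motif of serum response factor, was found before Egr2 and in 1.47% of all windows. A member was counted if any of its windows held the motif, and Egr2 had several windows. The percentages are per window, so they are not a share of genes. Neither a form of the NF-κB motif found in 1.41% of windows, nor TGANTCA, the AP-1 motif found in 6.75%, was in the window of any of the 7 members. The Ier3 window held none of the searched motifs, and the stretch shown stops at 221 bases, before an annotated exon. For NF-κB, only the form named above was searched, with no mismatch allowed. The Ier3 stretch shown holds a near match to that form, which was not counted. Whether Ier3 or the other members hold other forms of the NF-κB motif was not tested. Nr4a1 and Nr4a3, which moved in opposite directions, each held TGACG. These matches describe letters in a window and are not evidence of a bound factor.

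In untreated cells of the nApoE4 experiment, the Ier genes had the highest levels per length of exon, with means of 52.0 CPM per kb for Ier2, 47.5 for Ier3 and 27.0 for Ier5. The Nr4a genes lay lower, at 8.11 CPM per kb for Nr4a1, 1.73 for Nr4a2 and 0.105 for Nr4a3. Btg2 had 3.68 and Egr3 had 2.03 CPM per kb. Egr1 and Egr2 were at or near 0. Egr1 had 1 count in 1 nApoE4 sample and none in the other 10 samples, and Egr2 had 0 to 4 counts in a sample. Neither passed the filter on low counts in any comparison, so 8 of the 10 members had values to compare. No other gene overlaps Egr1 in the RefSeq table used here. On one side the nearest gene, Etf1, had a median count of 17129. On the other side the nearest were the lncRNA Gm41689 and then Reep2, with median counts of 20 and 91. Beyond them, Kdm3b had a median count of 4302. Whether the near absence of Egr1 counts reflects its expression was not tested, so no statement on its expression is made. Egr2 shares 1712 bases with the lncRNA Gm32255, which had at most 1 count in a sample. Nr4a2 shares 670 bases with the gene LOC105244150, which had at most 4.

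**Figure D1:**
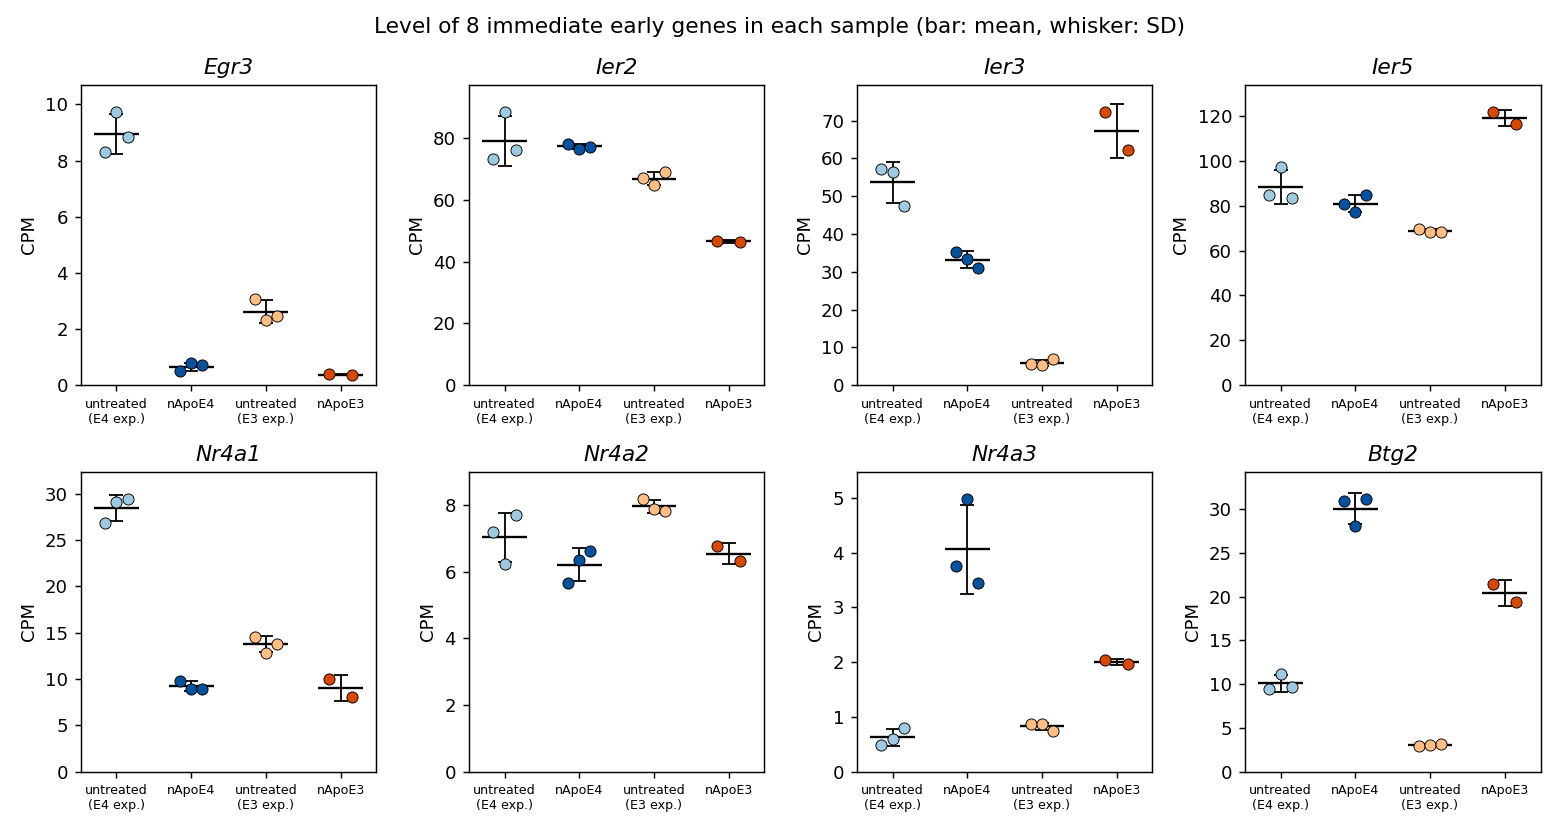
Level in CPM (vertical axis, linear from 0, a scale per gene) of the 8 members with enough counts, in every sample of the 4 groups. Points are samples, bars are means and whiskers are SDs over 3 samples, or over 2 for nApoE3. Ier3 is lowest in the untreated samples of the nApoE3 experiment, at 5.23 to 6.83 CPM, and highest in the nApoE3 samples, at 62.2 to 72.3 CPM.

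Ier3 had 57.3, 56.3 and 47.3 CPM in the untreated samples of the nApoE4 experiment and 35.3, 33.4 and 31.0 CPM in the nApoE4 samples. It had 5.55, 5.23 and 6.83 CPM in the untreated samples of the nApoE3 experiment and 72.3 and 62.2 CPM in the nApoE3 samples. Thus Ier3 was lower with nApoE4 and higher with nApoE3, and in neither experiment did the treated and untreated samples overlap. From the highest to the lowest mean, the order was nApoE3 (67.2 ± 7.14 CPM, SD, n = 2), untreated of the nApoE4 experiment (53.7 ± 5.50, n = 3), nApoE4 (33.2 ± 2.14, n = 3) and untreated of the nApoE3 experiment (5.87 ± 0.845, n = 3). No 2 neighbours in that order had overlapping samples. The log2 difference was −0.69 with nApoE4 (standard error 0.085), a level 1.61-fold lower, and 3.52 with nApoE3 (standard error 0.085), a level 11.5-fold higher. Between the untreated groups, Ier3 was 9.27-fold lower in the nApoE3 experiment, a log2 difference of −3.21 (standard error 0.12). The change with nApoE4 minus that with nApoE3 was −4.21 on the log2 scale (standard error 0.15). The treated groups were nearer to each other than the untreated groups were, with the nApoE3 samples above the nApoE4 samples. The gene lies at chr17:35821713-35822911 of GRCm38.p6, on the plus strand.

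The other 9 members were tested with edgeR over all genes, and 7 of them passed the filter on low counts. With nApoE4, 2 of the 7 rose, Nr4a3 and Btg2, and 2 fell, Egr3 and Nr4a1, at an adjusted p under 0.05. Of all 14240 genes tested in that comparison 57.2% passed, 28.6% higher and 28.6% lower. With nApoE3, 3 of the 7 rose, Ier5, Nr4a3 and Btg2, and 4 fell, Egr3, Ier2, Nr4a1 and Nr4a2, against 67.7% of 14817 genes called, 33.1% higher and 34.6% lower. The biological coefficient of variation, the spread between samples in the fit, was 0.0838 for nApoE4 and 0.0262 for nApoE3. A smaller spread lets smaller changes pass, so the numbers of calls are not comparable between the fragments. Among the 7, 4 were called with both fragments, and none of the 4 in opposite directions. Over all genes, 502 of the 6493 called with both fragments (7.73%) went in opposite directions.

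Nr4a3, also named NOR-1, rose with both fragments from a low level. It had 0.493, 0.602 and 0.793 CPM in the untreated samples of the nApoE4 experiment and 3.75, 4.98 and 3.45 CPM with nApoE4. In the nApoE3 experiment it had 0.864, 0.872 and 0.745 CPM without and 2.04 and 1.97 CPM with the fragment. Every treated sample was above every untreated sample, by a log2 difference of 2.68 with nApoE4 (standard error 0.22, adjusted p = 5.04e-06) and 1.27 with nApoE3 (standard error 0.17, adjusted p = 2.56e-05). The rise was larger with nApoE4, by 1.41 on the log2 scale (adjusted p = 0.00263). The untreated groups differed by 0.37 (95% interval −0.12 to 0.86, adjusted p = 0.148), which did not pass. The counts behind these values were 21 to 61 in untreated and 111 to 207 in treated samples.

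Nr4a1, or Nur77, a receptor known to restrain inflammatory genes in macrophages, fell with both fragments. Its level was 26.8, 29.1 and 29.4 CPM in the untreated samples of the nApoE4 experiment and 9.84, 8.95 and 8.97 CPM with nApoE4. In the nApoE3 experiment it was 14.6, 12.9 and 13.8 CPM untreated and 10.0 and 8.02 CPM treated. Treated and untreated samples did not overlap in either experiment, while the nApoE4 and nApoE3 samples overlapped with each other. The fall was 1.62 on the log2 scale with nApoE4 (standard error 0.074, adjusted p = 8.42e-08), a 3.06-fold lower level. With nApoE3 the log2 difference was −0.62 (standard error 0.086, adjusted p = 3.90e-05), a 1.53-fold lower level. The difference between these changes was −1.01 (adjusted p = 5.95e-05), and the untreated groups, which enter it too, differed by −1.07 (adjusted p = 3.08e-06). The third receptor, Nr4a2 or Nurr1, moved little. It had 7.18, 6.24 and 7.69 CPM untreated and 5.67, 6.35 and 6.63 CPM with nApoE4, which overlap. It had 8.19, 7.88 and 7.82 CPM untreated and 6.77 and 6.32 CPM with nApoE3, which do not. The log2 difference was −0.18 with nApoE4 (95% interval −0.43 to 0.076, adjusted p = 0.210) and −0.29 with nApoE3 (95% interval −0.45 to −0.13, adjusted p = 0.00363). Without untreated replicate 2 of the nApoE4 experiment, the former was −0.26 with an adjusted p of 0.0499. The difference between the changes was 0.10 (95% interval −0.19 to 0.39, adjusted p = 0.623).

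Egr3, a zinc-finger factor that acts in feedback on growth signals, had the largest fall among the members with either fragment. It went from 8.29, 9.72 and 8.85 CPM to 0.490, 0.770 and 0.705 CPM with nApoE4. It went from 3.07, 2.33 and 2.45 CPM to 0.378 and 0.372 CPM with nApoE3. All treated samples lay below all untreated ones, at 21 to 32 counts against 138 to 436. The level was 13.6-fold lower with nApoE4 (log2 difference −3.77, standard error 0.16, adjusted p = 5.31e-08) and 6.99-fold lower with nApoE3 (−2.81, standard error 0.21, adjusted p = 1.38e-07). The untreated samples of the nApoE3 experiment held 3.45-fold less than those of the nApoE4 experiment (adjusted p = 6.38e-06). The nApoE3 samples also lay below the nApoE4 samples. The fall was larger with nApoE4, with a difference of −0.97 on the log2 scale, which the untreated groups enter too, and an adjusted p of 0.0245. That call was lost without nApoE4 replicate 1 (adjusted p = 0.0550), without nApoE3 replicate 1 (0.103) and without nApoE3 replicate 2 (0.0879).

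Btg2 rose with both fragments. It had 9.41, 11.2 and 9.68 CPM untreated and 30.9, 28.0 and 31.2 CPM with nApoE4, and 2.92, 3.02 and 3.14 CPM untreated and 21.4 and 19.4 CPM with nApoE3. Treated and untreated samples were apart in both experiments. The level was 2.99-fold higher with nApoE4 (log2 difference 1.58, standard error 0.084, adjusted p = 2.37e-07) and 6.73-fold higher with nApoE3 (2.75, standard error 0.069, adjusted p = 4.37e-12). The rise was smaller with nApoE4, with a difference of −1.18 on the log2 scale (adjusted p = 8.56e-06). Its untreated level was 3.37-fold lower in the nApoE3 experiment (adjusted p = 1.94e-06), and the nApoE3 samples also lay below the nApoE4 samples.

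Ier2 and Ier5 had high levels and small changes. Ier5 had 85.0, 97.3 and 83.3 CPM untreated and 81.0, 77.3 and 84.8 CPM with nApoE4, so the groups overlapped and the log2 difference of −0.12 did not pass (95% interval −0.29 to 0.040, adjusted p = 0.176). Without untreated replicate 2 of that experiment, the Ier5 value was −0.056 (adjusted p = 0.399). With nApoE3, Ier5 rose from 69.7, 68.5 and 68.4 CPM to 122 and 117 CPM, a 1.72-fold higher level (log2 difference 0.78, standard error 0.029, adjusted p = 1.38e-10). The changes of Ier5 differed by −0.92 (adjusted p = 6.71e-06). Ier5 thus shared with Ier3 a rise with nApoE3, without a call with nApoE4. Ier2 had 73.1, 88.4 and 76.1 CPM untreated and 78.2, 76.6 and 77.1 CPM with nApoE4, a log2 difference of −0.030 (95% interval −0.20 to 0.14, adjusted p = 0.755). That value turned to 0.050 (adjusted p = 0.405) without untreated replicate 2 of that experiment, the sample at 88.4 CPM. With nApoE3, Ier2 fell from 67.0, 64.8 and 68.9 CPM to 46.8 and 46.2 CPM, 1.44-fold lower (log2 difference −0.53, standard error 0.035, adjusted p = 3.67e-08). The changes of Ier2 differed by 0.49 (adjusted p = 0.00160).

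**Figure D2:**
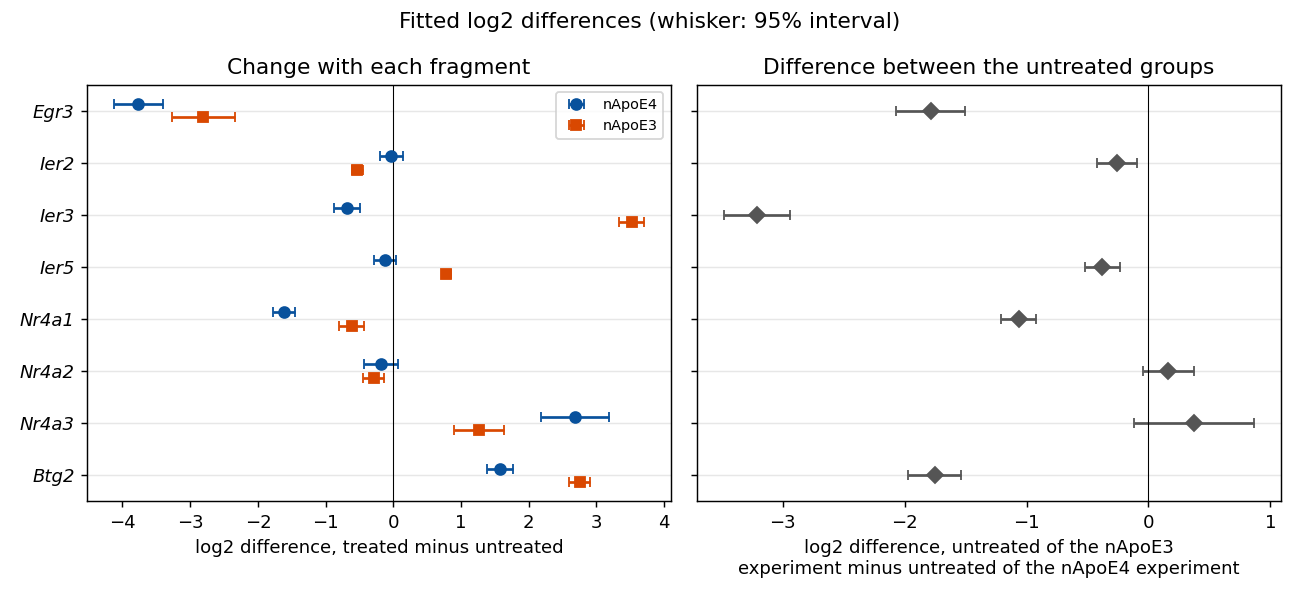
Fitted log2 differences (horizontal axes) of the 8 members for nApoE4 (circles) and nApoE3 (squares) against their own untreated samples, left, and for the untreated samples of the nApoE3 experiment against those of the nApoE4 experiment, right. Whiskers are 95% intervals from the edgeR fit. Ier3 lies at −0.69 and 3.52 on the left, on either side of 0, and at −3.21 on the right.

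Between the untreated groups, members were called about as often as genes in general. Of the 7 tested members other than Ier3, 5 were lower in the untreated samples of the nApoE3 experiment, Egr3, Ier2, Ier5, Nr4a1 and Btg2, and none was higher. Over all 14249 genes tested between these groups, 69.3% were called, 34.4% higher and 34.9% lower. Ier2 was lower by 0.26 on the log2 scale (adjusted p = 0.0114), a call lost without untreated replicate 2 of the nApoE3 experiment (adjusted p = 0.0574). Ier5 was lower by 0.38 (adjusted p = 8.03e-04). Nr4a2 differed by 0.16 (95% interval −0.046 to 0.37, adjusted p = 0.141). When the changes with nApoE4 and nApoE3 were set against each other, 6 of the 7 members passed, 2 with a higher value for nApoE4, Ier2 and Nr4a3, and 4 with a lower one, Egr3, Ier5, Nr4a1 and Btg2. In that test 28.3% of 15287 genes were called, 14.4% higher and 13.9% lower. It uses the same untreated samples as the comparison between the untreated groups, so the 2 sets of values are not independent.

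Other immediate early genes were taken from a list of 38, of which 35 were tested with each fragment. With nApoE4, 22 rose and 8 fell, and the median log2 difference was 0.93, against 0.0013 over all genes tested. With nApoE3, 23 rose and 10 fell, with a median of 1.02 against −0.0026 over all genes. These shares, 85.7% and 94.3%, stand beside the 57.2% and 67.7% of all genes given above. Ptgs2, the inducible cyclooxygenase, went from 2.37 ± 0.411 to 63.5 ± 3.40 CPM with nApoE4 (SD, n = 3 and 3; adjusted p = 1.23e-09, edgeR) and from 5.99 ± 0.475 to 384 ± 3.66 CPM with nApoE3 (SD, n = 3 and 2; adjusted p = 1.93e-16, edgeR). The NF-κB inhibitors Tnfaip3 and Nfkbia rose by 3.71 and 3.41 on the log2 scale with nApoE4 (adjusted p = 4.23e-10 and 1.14e-09). With nApoE3 they rose by 4.07 and 2.70 in that order (adjusted p = 2.23e-13 and 1.57e-12). Myc, a growth-promoting transcription factor, rose by 3.63 with nApoE4 (adjusted p = 3.28e-08) and by 3.51 with nApoE3 (adjusted p = 3.34e-09). The kinase gene Plk2 rose by 2.54 with nApoE4 (adjusted p = 1.86e-09) and by 3.57 with nApoE3 (adjusted p = 1.57e-15).

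Some genes of that list fell as Egr3 and Nr4a1 did. Ier5l, a relative of Ier5, fell by 2.71 on the log2 scale with nApoE4 (adjusted p = 6.84e-09) and went from a mean of 24.7 to 6.21 CPM with nApoE3 (adjusted p = 1.60e-11), while Ier5 rose with nApoE3. Fos, picked after its values were seen, fell from a mean of 28.4 to 5.63 CPM with nApoE4 (adjusted p = 1.07e-07) and from 13.2 to 5.41 CPM with nApoE3 (adjusted p = 6.08e-08). Egr4, the fourth gene of the Egr family, did not pass the filter on low counts. Of the 28 genes of the list called with both fragments, 1 went in opposite directions, the AP-1 gene Jun. Jun went from a mean of 57.9 to 31.1 CPM with nApoE4 and from 69.4 to 114 CPM with nApoE3. The changes of Jun were −0.89 (adjusted p = 6.26e-07) and 0.71 (adjusted p = 1.62e-09), and they differed by −1.61 (adjusted p = 7.60e-09). Jun had the directions of Ier3, but its untreated level was higher in the nApoE3 experiment, by 0.24 (adjusted p = 0.00210), where that of Ier3 was lower.

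**Figure D3:**
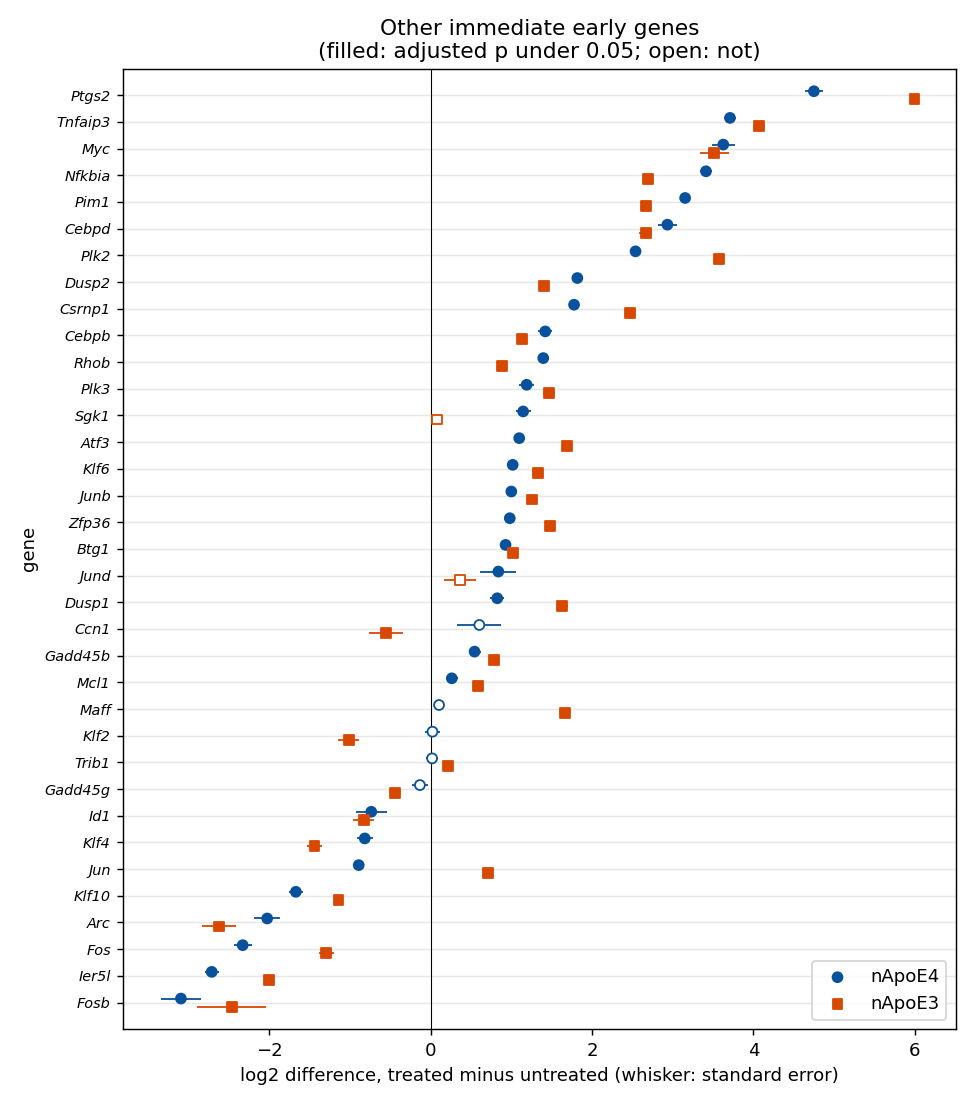
Log2 difference, treated minus untreated (horizontal axis), of the 35 tested genes of the list of other immediate early genes (vertical axis, ordered by the nApoE4 value) for nApoE4 (circles) and nApoE3 (squares). Whiskers are standard errors and filled symbols have an adjusted p under 0.05 from edgeR. Most genes lie on the same side of 0 with both fragments, from Ptgs2 with the highest values, 4.75 and 6.00, downward, and Jun lies at −0.89 and 0.71.

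Direct partners and relatives of the members, a list of 10 genes, held genes that rose and genes that fell with each fragment. With nApoE4, 3 of 9 tested rose and 5 fell, and with nApoE3, 4 of 10 rose and 5 fell. These shares were 88.9% and 90%, beside 57.2% and 67.7% of all genes. Nab1 and Nab2 encode co-repressors that bind Egr proteins. Nab1 rose by 0.86 with nApoE4 (adjusted p = 8.60e-07) and by 0.85 with nApoE3 (adjusted p = 7.10e-12). Nab2, itself a target of Egr factors, fell from a mean of 57.7 to 20.6 CPM with nApoE4 (adjusted p = 6.64e-08) and from 45.0 to 32.6 CPM with nApoE3 (adjusted p = 2.57e-06). The changes of Nab2 differed by −1.02 (adjusted p = 2.71e-06). Rxra, which encodes a receptor that pairs with Nr4a1 and Nr4a2, fell by 1.28 with nApoE4 (adjusted p = 3.17e-07) and by 1.69 with nApoE3 (adjusted p = 1.03e-13). Within the family of Btg2, Btg1 rose by 0.93 and 1.02 (adjusted p = 7.26e-07 and 1.71e-10), and Tob1 fell by 1.16 and 1.63 (adjusted p = 3.13e-07 and 1.27e-10), for nApoE4 and nApoE3 in that order.

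Upstream regulators, a list of 21 genes of the kinases and factors that act on immediate early promoters, were all tested. With nApoE4, 6 were higher and 9 lower, with a median log2 difference of −0.13. With nApoE3, 8 were higher and 10 lower, with a median of −0.070, and 5 were higher without nApoE3 replicate 1. The shares called were 71.4% and 85.7%, beside 57.2% and 67.7% of all genes. Mef2c, which encodes a transcription factor of myeloid cells, fell by 1.58 and 1.78 with nApoE4 and nApoE3 (adjusted p = 1.26e-07 and 3.06e-13). Elk3, a partner of serum response factor, fell by 1.25 and 1.19 (adjusted p = 1.08e-05 and 4.23e-08). Mef2d, of the same family as Mef2c, fell by 1.28 with nApoE4 (adjusted p = 8.97e-06) and by 0.59 with nApoE3 (adjusted p = 1.31e-09). The kinase gene Rps6ka5 fell by 0.29 with nApoE4 (adjusted p = 0.0264) and by 1.12 with nApoE3 (adjusted p = 1.52e-09). Srf, which encodes serum response factor itself, passed with neither fragment (adjusted p = 0.0503 and 0.969). Of the 14 called with both fragments, 3 went in opposite directions, Creb1, Mef2a and Map2k1, a share of 21.4% beside 7.73% over all genes. Map2k1, the ERK kinase MEK1, had log2 differences of −0.17 with nApoE4 (adjusted p = 0.0264) and 0.73 with nApoE3 (adjusted p = 4.09e-10). Creb1 and Mef2a went the other way. Their log2 differences were 0.29 and 0.63 with nApoE4 (adjusted p = 0.00550 and 6.98e-05). With nApoE3 they were −0.23 and −0.13 (adjusted p = 7.30e-05 and 7.56e-04).

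ERK pathway feedback genes, a list of 11, were also mixed. With nApoE4, 3 of 10 tested rose and 5 fell, and with nApoE3, 3 of 9 rose and 4 fell. These shares were 80% and 77.8%, beside 57.2% and 67.7% of all genes. Dusp6, a phosphatase that acts on ERK and is induced by it, fell by 1.66 with nApoE4 (adjusted p = 1.29e-06) and by 1.24 with nApoE3 (adjusted p = 2.54e-06). Etv5, an ETS factor induced through ERK, fell by 0.85 and 1.23 (adjusted p = 3.75e-06 and 4.04e-11). Dusp4, a nuclear phosphatase of MAP kinases, rose by 0.81 with nApoE4 (adjusted p = 7.85e-07) and by 1.88 with nApoE3 (adjusted p = 1.65e-13).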

How the data were processed

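Per the submitters' processing notes, reads were handled with Trim Galore 0.5.0, FastQC 0.11.8, HISAT2 2.1.0 and HTSeq 0.11.0 on GRCm38.p6. The authors deposited raw HTSeq counts per gene, 1 table per sample; the strand setting and annotation release are not given in the sources used here. Rows that name no gene were left out, and genes took 76.033 to 77.709% of the tallied reads. Groups came from the treatment label. Each comparison was fitted with edgeR 4.0.16 in R 4.3.3 (TMM, filterByExpr, quasi-likelihood F test, Benjamini-Hochberg adjustment over all genes tested, threshold 0.05), and the difference between the fragments as an interaction over 11 samples. The standard error is the log2 difference divided by the square root of F, and 95% intervals use the same fit. Per-length levels used the summed exons of GENCODE annotation. Scripts were tested on simulated data. Alternatives were DESeq2 1.42.0, its size factors, 2 filters on low counts (at least 1 count in any sample, at least 10 in every sample), all 11 samples in 1 fit, a replicate block and leaving out each sample. The members and gene lists were chosen with earlier results of these data known, so no pattern here is independent support. List genes were named when past the threshold and among the 4 largest changes of the list in a comparison, if any group mean reached 5 CPM, or when a partner or relative of a member; of these, some are not described. Jun, Fos, Srf, Creb1, Mef2a and Map2k1 were chosen after their values were seen.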

Additional observations from a re-analysis of the deposited data

Results flagged for a closer look

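The following genes were picked out because their change with nApoE4 differed from that with nApoE3. By the interaction term in edgeR over all genes, Nr4a3 differed by 1.41 on the log2 scale (adjusted p = 0.00263) and Ier2 by 0.49 (adjusted p = 0.00160), both with the higher value for nApoE4. The value was lower for nApoE4 by a log2 difference of −1.18 for Btg2 (adjusted p = 8.56e-06), −1.01 for Nr4a1 (adjusted p = 5.95e-05), −0.92 for Ier5 (adjusted p = 6.71e-06) and −0.97 for Egr3 (adjusted p = 0.0245). For Ier3 the value was −4.21. Each of the 3 nApoE4 samples lay below its untreated mean and each of the 2 nApoE3 samples above it. For Ier3 this difference was not tested, since it chose the gene. The adjusted p-values of the other genes come from the same comparison that picked them, so they are no further support. The member values, in groups of at most 3 samples, were not put to Dixon's outlier test.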

How the results depend on the processing

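Ier3 kept its direction under every alternative run, at −0.77 to −0.64 with nApoE4, 3.41 to 3.63 with nApoE3, −3.32 to −3.13 between the untreated groups and −4.33 to −4.10 for the difference between the fragments. Of 969 recomputed values, 947 kept their direction and their side of the threshold, or stayed within 1.5 times the count. Without untreated replicate 2 of the nApoE4 experiment, the nApoE4 value of Ier2 turned to 0.050 (−0.088 to 0.050 over the samples left out) and Nr4a2 passed at −0.26. Without untreated replicate 2 of the nApoE3 experiment, the baseline value of Ier2 was −0.23 and did not pass. Upstream regulators called higher with nApoE3 numbered 5 to 7 when each sample was left out, against 8. The cause of these shifts was not tested. Leaving out an nApoE3 sample leaves 1 in that group, which is then assumed to vary like the others. Same-numbered samples did not deviate together (correlations −0.0928, −0.41 and −0.2 with nApoE4, 0.00591 and 0.0132 with nApoE3). The highest correlation with an untreated sample of another number was 0.266, 0.397 and 0.202 with nApoE4, and 0.00916 and −0.00591 with nApoE3. With so few samples in a group, these values cannot show whether the numbers pair the samples. With the replicate number as a block, 2307 genes were called for the difference between the fragments against 4331, partners and relatives called higher numbered 1 against 2, and the Egr3 difference was −0.94 (adjusted p = 0.0582, edgeR). Counts of 21 to 32 limit the treated level of Egr3.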

Other observations

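The genes whose log2 CPM followed that of Ier3 most closely over the 11 samples, of 8840 with a mean of at least 10 CPM, were Atg13, Basp1, Cd72, Tmem106a and C3ar1. Pearson's r was 0.982, 0.970, 0.961, 0.960 and 0.957 in that order. The 11 samples fall into 4 groups, so these values mostly describe the order of the group means. The 5 genes were picked for following Ier3, and each was lowest, as Ier3 was, in the untreated samples of the nApoE3 experiment. Atg13, Basp1 and C3ar1 had their highest mean in the untreated samples of the nApoE4 experiment, whereas Ier3 had its highest with nApoE3. Basp1 had group means of 111, 86.5, 50.1 and 99.9 CPM in untreated cells of the nApoE4 experiment, nApoE4, untreated cells of the nApoE3 experiment and nApoE3. C3ar1, which encodes the receptor for complement C3a, had 210.2, 159, 106 and 184 CPM in the same order. The spread of Ier3 between its lowest and highest group, 5.87 to 67.2 CPM, was wider than that of Basp1 or C3ar1.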
